A study of Mus musculus with 12 samples.

Results

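The 76 genes described here belong to the families of enzymes that start, branch, extend and cap mucin-type O-glycans, together with their closest relatives. They were chosen by symbol: polypeptide GalNAc-transferases (Galnt), core 1 genes (C1galt1, C1galt1c1), branching enzymes (Gcnt), chain-extending transferases (B3gnt, B3galt, B4galt), GalNAc-capping enzymes (B4galnt), fucosyltransferases (Fut), sialyltransferases (St3gal, St6gal, St6galnac, St8sia) and carbohydrate sulfotransferases (Chst). Of the 55421 gene rows, 94 carried such a symbol and 76 had at least 10 counts summed over the 12 libraries. Just inside that minimum were Galnt9 with 13 counts and Chst13 with 15 counts, and just outside were Fut7 with 9, Galnt16 with 8 and B3galt2 with 7. The 76 rows hold 75 symbols, since St6galnac2 appears under 2 gene identifiers, and 1 of them, Galnt6os, is an antisense RNA of Galnt6.

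Mucin-type O-glycans begin when a Galnt enzyme in the Golgi links GalNAc to a serine or threonine of the mucin protein. C1galt1, which needs the chaperone C1galt1c1 (Cosmc), adds galactose to form core 1, B3gnt6 forms core 3 instead, and Gcnt enzymes add the GlcNAc branch of core 2 and core 4. The arms are then lengthened and closed with fucose, sialic acid, GalNAc or sulfate, which gives gastric mucus its blood group and Lewis antigens. In the stomach, surface pit cells make Muc5ac with Lewis-type ends, and mucous neck and gland cells make Muc6, whose chains end in the alpha-linked GlcNAc added by A4gnt.

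The libraries came from gastric organoids, three-dimensional cultures of epithelium grown in Matrigel from isolated glands of wild-type mice, either of the corpus (the acid-secreting body of the stomach) or of the antrum (its distal part). Before use they were passaged at least 3 times in medium holding 50% conditioned medium from L-WRN cells, a source of Wnt3a, R-spondin and Noggin, with 20% serum for corpus and 10% for antrum. On day 4 after passage, inhibited organoids received XAV939 (1 mM as labelled), which inhibits the tankyrases and so stabilizes the beta-catenin destruction complex, lost their added Wnt and R-spondin, and were given Noggin-1 at 100 ng/mL. Vehicle organoids kept their usual medium with DMSO, and all were treated for 24 h. Each of the 4 groups (inhibited antrum, inhibited corpus, vehicle antrum, vehicle corpus) had 3 libraries, 1 from each of the lines numbered 8025, 8026 and 8028. The lines are described as independent. The labels do not say if corpus and antral lines of one number came from one animal. P-values measure the spread among libraries within the 4 groups, without pairing the inhibited and vehicle libraries of a line. A fit with each line as a block, which pairs them, is given as an alternative. Compound and medium change cannot be told apart, nor can region and serum.

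Libraries held 18858022 to 31656696 counts, so that 3 counts correspond to 0.0889 to 0.177 CPM (counts scaled to a common library size, with TMM factors). Axin2, a standard Wnt target, had 3.71, 5.39 and 18.7 CPM in inhibited corpus lines 8025, 8026 and 8028, against 70.7, 64.2 and 71.4 CPM in vehicle corpus lines. It had 11.5, 14.3 and 11.3 CPM in inhibited antral lines against 70.1, 79 and 77.4 CPM in vehicle antral lines. Inhibited corpus line 8028 thus kept more Axin2 than the other inhibited libraries. Ribosomal-type transcripts made up 17.2% and 6.87% of counts in vehicle antral lines 8025 and 8028, against 0.839% to 3.45% in the other libraries. The 5 epithelial markers were abundant in every library, while mesenchymal markers summed to at most 1.47 CPM and endothelial markers to at most 0.899 CPM. The 3 immune markers summed to 9.85 to 51.3 CPM, nearly all of it Cd68, a lysosomal protein of macrophages, while Ptprc, the pan-leukocyte marker, stayed at or below 0.86 CPM. The 2 parietal cell markers summed to at most 1.56 CPM, with Atp4b at 0 in 3 of the 4 groups, so the libraries labelled corpus held almost none of the transcripts that define acid-secreting cells.

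Many of these enzymes differed in level after Wnt inhibition, with more rises than falls in both regions, and most of the calls were shared by corpus and antrum. Of 63 members with enough counts to test, 20 were higher (31.7%) and 12 lower (19%) in inhibited than in vehicle corpus organoids at an adjusted p below 0.05 (edgeR's quasi-likelihood test over all 16152 genes, Benjamini-Hochberg adjustment). Among all genes tested in that comparison, 15.5% were higher and 15.4% lower. In antral organoids 21 members were higher (33.3%) and 13 lower (20.6%), beside 16.3% and 13.4% of all genes. Counting both directions, 30.9% of all genes were called in corpus and 29.7% in antrum. These are the shares against which the counts for single roles and lists are to be read, and no role or list was tested against another. The median log2 change over the members tested was 0.10 in corpus and 0.15 in antrum, against −0.04 over all genes in both regions. The call was upward in both regions for 18 members, which is 90% of the corpus calls and 85.7% of the antral ones, and downward in both for 11 members, or 91.7% and 84.6%. No member was called in opposite directions. The share of calls common to both regions was not counted over all genes, so sharing is not shown to be particular to members. A change of 2-fold or more was seen among the calls for 6 rises and 8 falls in corpus, and for 8 rises and 8 falls in antrum. The share of all genes called at that size was not computed, so these counts only describe the members. Scaling by total counts in place of TMM gave 14 higher and 13 lower in corpus (51.9% of calls upward, against 62.5%). Among all genes, 26.4% of the corpus calls were upward with total counts, against 50.1% with TMM. Total-count scaling moved the median of all genes to −0.19 and of the members to −0.06. The count of lower members was the less stable one: it was 6 in corpus without inhibited line 8026, and 5, 7 and 7 in antrum without inhibited line 8025, inhibited line 8026 and vehicle line 8026.

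In bulk RNA, more cells of one type and more RNA per cell cannot be told apart, and markers of gastric cell types moved with the treatment as well. All 4 surface pit markers (Muc5ac, Gkn1, Gkn2, Tff1) had counts in every group. Their summed level was 1521 to 3200 CPM in inhibited and 208.3 to 331 CPM in vehicle corpus libraries, and 2897 to 4037 CPM in inhibited and 252.4 to 309.1 CPM in vehicle antral libraries. Chief cell markers (Pgc and Cblif) summed to 16.1 to 20.0 CPM in inhibited and 129.9 to 362.3 CPM in vehicle corpus libraries, and to 10.8 to 33.9 CPM in inhibited and 84.0 to 126.4 CPM in vehicle antral libraries. Neck and gland mucous markers (Muc6 and Tff2) summed to 657.1 to 1145 CPM in inhibited and 368.9 to 382.1 CPM in vehicle corpus libraries, and to 850.4 to 1494 CPM in inhibited and 328.9 to 641.6 CPM in vehicle antral libraries. The pair ran in opposite directions: Tff2, the gland trefoil peptide, had 715, 642 and 1131 CPM in inhibited against 131, 149 and 238 CPM in vehicle corpus lines, and 1049, 831 and 1457 CPM in inhibited against 141, 90.7 and 218 CPM in vehicle antral lines, while Muc6 was lower in every inhibited library. The 5 intestinal goblet markers summed to 40.8 to 101.5 CPM in inhibited and 13.1 to 29.0 CPM in vehicle corpus libraries, and to 252.8 to 337.3 CPM in inhibited and 26.9 to 35.0 CPM in vehicle antral libraries. Clca1 made up most of that antral sum in inhibited lines, with 214, 278 and 237 CPM in inhibited against 5.72, 7.35 and 12.2 CPM in vehicle antral lines. Muc2, the defining goblet mucin, had 1.85, 2.87 and 1.54 CPM in inhibited against 1.72, 2.52 and 2.36 CPM in vehicle corpus lines, and 1.58, 1.87 and 2.03 CPM in inhibited against 1.83, 0.297 and 3.34 CPM in vehicle antral lines, with overlap in both regions. Epithelial markers summed to 15750 to 16960 CPM in inhibited and 7967 to 8873 CPM in vehicle corpus libraries, and the keratins carried that difference. Epcam, an epithelial adhesion protein, was lower in every inhibited library, with 322, 329 and 486 CPM in inhibited against 526, 508 and 539 CPM in vehicle corpus lines and 450.1, 477 and 472 CPM in inhibited against 567, 575 and 583 CPM in vehicle antral lines. The part of these shifts in the results below was not tested.

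**Figure D1:**
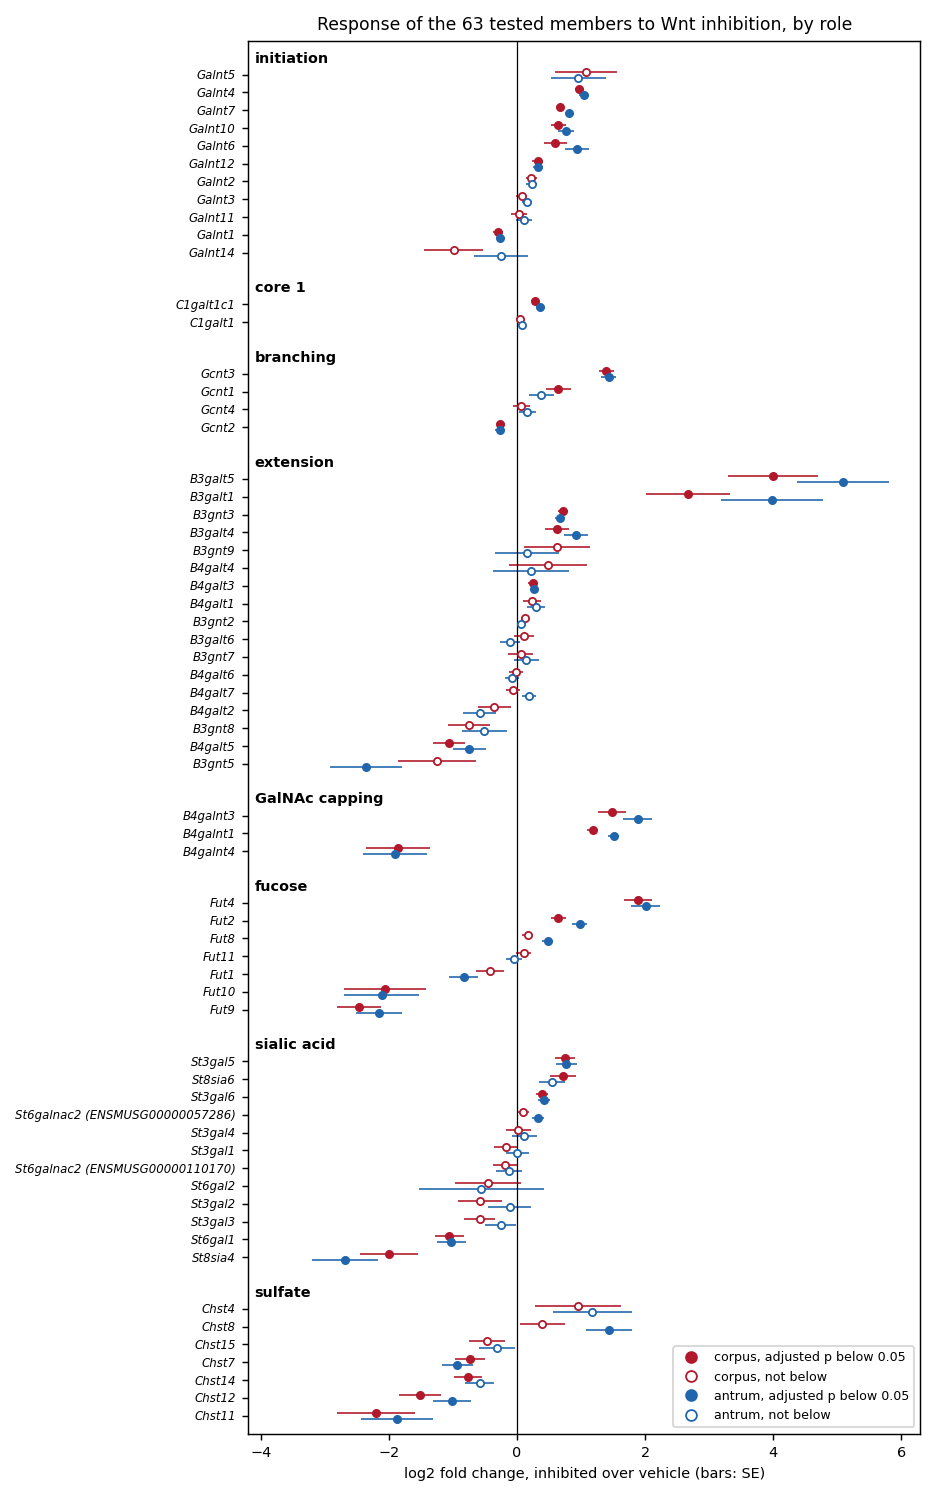
Log2 change (inhibited over vehicle) with its standard error for each of the 63 members tested, ordered by role, in corpus and antrum; filled points have an adjusted p below 0.05. Most filled points lie on the same side of 0 in both regions. B3galt5, B3galt1, Fut4, B4galnt3, B4galnt1 and Gcnt3 stand far to the right, and Fut9, Fut10, St8sia4, Chst11 and B4galnt4 far to the left.

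The largest rises among members averaging at least 1 CPM were those of B3galt5, Fut4 and B4galnt3 in both regions, and B4galt5, Chst11 and B4galnt4 were among the 6 largest falls in corpus. Their RefSeq promoter windows on GRCm38.p6, 250 bases before to 50 bases after the annotated start, show what lies at the start of members that moved together in opposite directions. Each is printed 5′ to 3′ on the strand of its gene, with capitals marking the GC box GGGCGG on either strand. They are the windows of B3galt5 (chr16:96235551-96235850, + strand, the first of 3 annotated starts), Fut4 (chr9:14752073-14752372, − strand), B4galnt3 (chr6:120294848-120295147, − strand), Chst11 (chr10:82985247-82985546, + strand), B4galnt4 (chr7:141060728-141061027, + strand) and B4galt5 (chr2:167349129-167349428, − strand).
B3galt5: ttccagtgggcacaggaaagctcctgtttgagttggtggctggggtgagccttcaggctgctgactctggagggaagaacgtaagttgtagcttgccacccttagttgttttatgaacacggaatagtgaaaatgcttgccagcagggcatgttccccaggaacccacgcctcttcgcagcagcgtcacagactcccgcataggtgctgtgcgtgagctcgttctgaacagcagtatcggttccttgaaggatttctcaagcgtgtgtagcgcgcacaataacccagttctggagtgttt
Fut4: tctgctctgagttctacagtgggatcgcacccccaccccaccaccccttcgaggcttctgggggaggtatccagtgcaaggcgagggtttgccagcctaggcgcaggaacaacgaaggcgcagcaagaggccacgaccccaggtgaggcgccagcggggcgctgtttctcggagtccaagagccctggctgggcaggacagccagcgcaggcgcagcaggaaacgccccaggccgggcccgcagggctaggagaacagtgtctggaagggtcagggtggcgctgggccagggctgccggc
B4galnt3: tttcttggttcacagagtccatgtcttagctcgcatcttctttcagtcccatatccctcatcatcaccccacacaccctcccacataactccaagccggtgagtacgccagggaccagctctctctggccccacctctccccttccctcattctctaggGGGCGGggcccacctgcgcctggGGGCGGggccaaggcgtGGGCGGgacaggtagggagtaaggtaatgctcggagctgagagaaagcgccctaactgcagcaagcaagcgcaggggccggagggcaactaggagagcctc
Chst11: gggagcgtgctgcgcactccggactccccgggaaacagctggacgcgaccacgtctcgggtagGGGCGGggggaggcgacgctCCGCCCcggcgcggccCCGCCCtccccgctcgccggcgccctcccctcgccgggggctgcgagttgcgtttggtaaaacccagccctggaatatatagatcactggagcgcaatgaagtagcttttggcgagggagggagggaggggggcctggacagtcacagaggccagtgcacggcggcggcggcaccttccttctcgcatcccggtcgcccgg
B4galnt4: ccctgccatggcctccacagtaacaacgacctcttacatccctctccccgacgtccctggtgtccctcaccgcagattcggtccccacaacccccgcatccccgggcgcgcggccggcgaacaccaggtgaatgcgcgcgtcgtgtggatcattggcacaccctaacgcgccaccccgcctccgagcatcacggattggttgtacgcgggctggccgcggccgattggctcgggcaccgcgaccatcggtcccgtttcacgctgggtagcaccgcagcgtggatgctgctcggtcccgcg
B4galt5: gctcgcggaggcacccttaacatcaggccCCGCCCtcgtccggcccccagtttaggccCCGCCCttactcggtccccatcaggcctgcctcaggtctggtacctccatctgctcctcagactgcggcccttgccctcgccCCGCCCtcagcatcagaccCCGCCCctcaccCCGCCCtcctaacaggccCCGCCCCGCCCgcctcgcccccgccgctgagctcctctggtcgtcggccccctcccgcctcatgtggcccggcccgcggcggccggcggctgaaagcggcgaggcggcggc
The B3galt5 window, 53% G and C, held no GC box, and neither did that of Fut4 (68%) or B4galnt4 (68%). B4galnt3 (61.3%) and Chst11 (71%) each held 3 and B4galt5 (75%) held 7, so rising and falling genes alike had windows with and without the motif. Windows were found for 57 of the 75 member symbols, 75 windows in all, of which 62.7% held GGGCGG, against 35.7% of all 32851 windows. Their median G and C content was 61.7%, against 52.7% over all windows. Core words of TCF/LEF sites were searched on both strands. The word CTTTGAT was in 1.33% of member windows and 3.73% of all windows. For CTTTGAA the shares were 1.33% of member windows and 5.14% of all windows. For CTTTGTT they were 6.67% of member windows and 5.85% of all windows. None of the 6 printed windows held any of these words, or the 7-letter aryl hydrocarbon receptor word TTGCGTG that 1.16% of all windows held. Shorter forms of that word were not searched.

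Galnt enzymes start O-glycans. Of the 14 members with a Galnt symbol, 1 of them the antisense RNA Galnt6os, 11 were tested, and 5 rose and 1 fell in each region. Among all genes 15.5% were higher and 15.4% lower in corpus, and 16.3% higher and 13.4% lower in antrum. Galnt4 (chr10:99108159-99113247), a transferase that prefers peptides already carrying GalNAc, had 352, 352 and 331 CPM in inhibited corpus lines 8025, 8026 and 8028, against 177, 175 and 176 CPM in vehicle lines. In antrum it had 313, 315 and 359.7 CPM in inhibited and 146, 161 and 172 CPM in vehicle lines. Every inhibited library lay above every vehicle library, and the rise was 1.96-fold in corpus (log2 change 0.97 ± 0.073 SE, adjusted p = 4.99e-06) and 2.06-fold in antrum (log2 change 1.04 ± 0.073 SE, adjusted p = 3.04e-06). Galnt4 shares 8.25% of its exon bases with Poc1b on the same strand. Galnt7 (chr8:57523828-57653032), which acts on GalNAc-bearing peptides too, had 297, 296 and 275 CPM in inhibited and 175, 176 and 196 CPM in vehicle corpus lines. Antral lines gave 328, 329.8 and 336 CPM in inhibited and 184, 182 and 200.2 CPM in vehicle lines. These groups did not overlap either, with rises of 1.59-fold (adjusted p = 2.2e-05) and 1.76-fold (adjusted p = 5.73e-06).

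Smaller rises were called for Galnt6, Galnt10 and Galnt12. Galnt6 averaged 126 ± 8.26 CPM in inhibited and 82.9 ± 11 CPM in vehicle corpus organoids (SD, n = 3 each here and below). In antrum it averaged 145 ± 12.4 CPM in inhibited against 75.7 ± 25.2 CPM in vehicle organoids (adjusted p = 0.0291 in corpus and 0.00299 in antrum). Galnt6 shares 11.4% of its exon bases with the antisense Galnt6os, and their reads cannot be told apart without strand. Its corpus call was lost without inhibited line 8025 (adjusted p = 0.0601), vehicle line 8025 (0.0776) or vehicle line 8026 (0.101), and with total-count scaling (0.0967). Galnt10 rose 1.56-fold in corpus and 1.7-fold in antrum (adjusted p = 0.00211 and 0.000729). Galnt12 rose 1.25-fold in both regions (adjusted p = 0.0144 and 0.014). The call was lost with total-count scaling (0.284 and 0.123) and without vehicle corpus line 8026 (0.0625), inhibited antral line 8026 (0.0584) or vehicle antral line 8028 (0.0504). Galnt1, an initiating transferase found in most tissues, was the member that fell. It averaged 90.8 ± 9.89 CPM in inhibited against 112 ± 6.75 CPM in vehicle corpus organoids, and 92.6 ± 0.232 CPM in inhibited against 111 ± 2.1 CPM in vehicle antral organoids (adjusted p = 0.0102 and 0.0216). That fall was lost without vehicle corpus line 8025 (adjusted p = 0.0621) and without any single antral library but vehicle line 8025 (0.0545 to 0.0868). Galnt3 was not called: it averaged 217 ± 19.2 CPM in inhibited and 207 ± 17.5 CPM in vehicle corpus organoids, with a 95% interval of the log2 change of −0.12 to 0.26. The interval was −0.03 to 0.34 in antrum, where the fit with each line as a block called it higher (adjusted p = 0.0351).

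Per length, Galnt4 made up a larger share of the family in inhibited organoids and Galnt3 a smaller one. The summed level of the initiating transferases was 289 ± 8.60 CPM per kb in inhibited and 213 ± 4.92 in vehicle corpus organoids, and 304.5 ± 6.39 in inhibited and 209.8 ± 11.8 in vehicle antral organoids. Of that sum, Galnt4 made up 23.5% ± 0.704 in inhibited and 16.2% ± 0.308 in vehicle corpus organoids. It made up 21.2% ± 1.24 in inhibited against 14.9% ± 0.714 in vehicle antral organoids. Galnt3 made up 17.2% ± 1.09 in inhibited and 22.2% ± 1.70 in vehicle corpus organoids, and 15.8% ± 0.917 in inhibited against 20.6% ± 1.11 in vehicle antral organoids. Galnt3 had the highest mean share in both vehicle groups and Galnt4 in both inhibited groups, although Galnt7, at 20.7% ± 0.178, lay within the spread of Galnt4 in inhibited antral organoids.

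**Figure D2:**
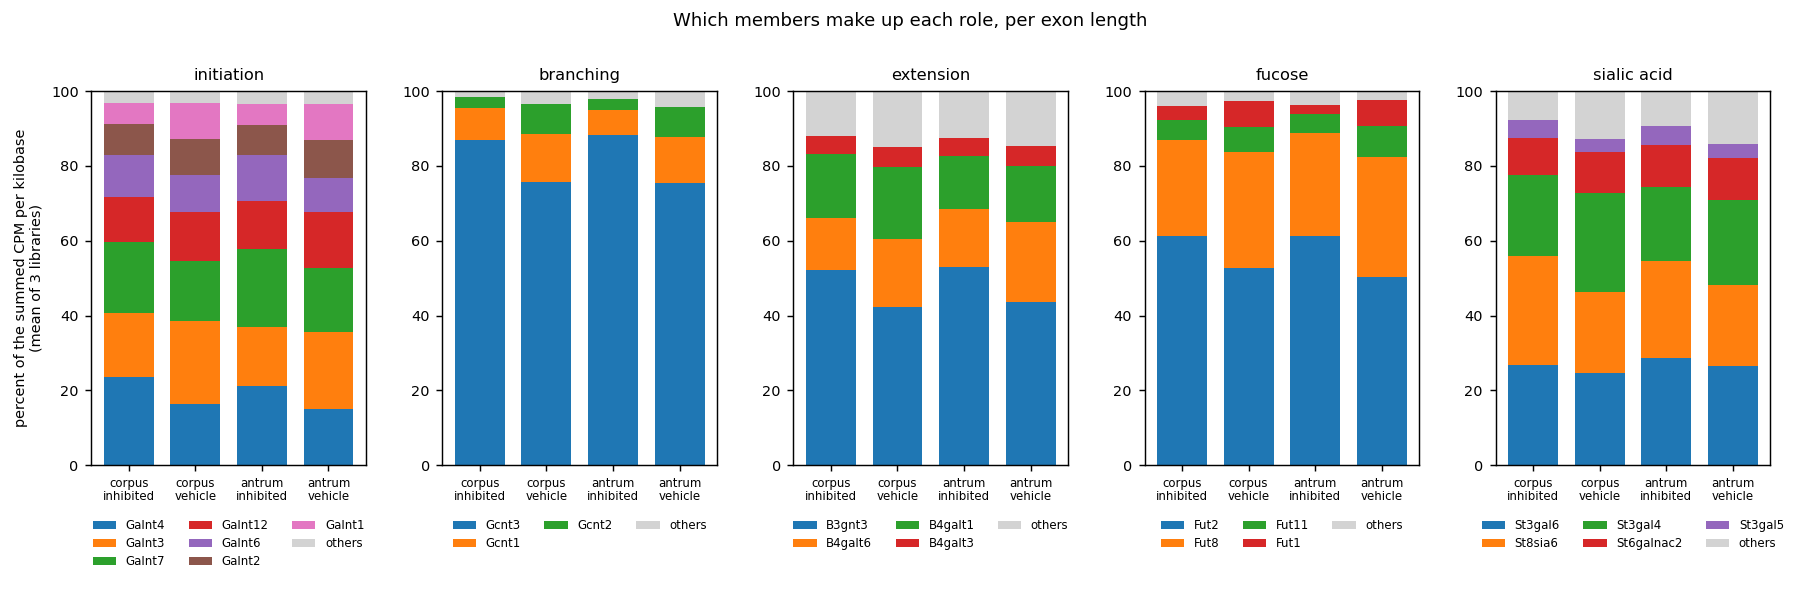
Share of each enzyme in the summed level (CPM per kb of exon, mean of 3 lines, in percent) of its role, as stacked bars for the 4 groups and 5 roles. Gcnt3 fills 86.8% and 88.2% of branching in inhibited corpus and antral organoids, against 75.6% and 75.3% in vehicle ones, and B3gnt3, Fut2 and Galnt4 take larger shares of their bars in inhibited organoids as well.

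The core 1 genes differed little in level between inhibited and vehicle organoids. C1galt1, the core 1 synthase, had 166, 175 and 174 CPM in inhibited and 165, 169.6 and 163 CPM in vehicle corpus lines. In antral lines it had 186, 182 and 189 CPM in inhibited against 186, 158 and 186 CPM in vehicle antral lines. The 95% intervals of its log2 change, −0.10 to 0.20 in corpus and −0.08 to 0.22 in antrum, leave out changes as large as those of Galnt4. Its chaperone C1galt1c1 was higher, at 25.7 ± 0.524 CPM in inhibited against 21.2 ± 0.996 CPM in vehicle corpus organoids and 27.6 ± 0.928 CPM in inhibited against 21.5 ± 1.23 CPM in vehicle antral organoids (adjusted p = 0.0102 and 0.0024). That call was lost with total-count scaling (0.412 and 0.07). B3gnt6, which makes core 3 and is best known from the colon, had 78 counts over all 12 libraries and was too low to test.

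The most abundant member per length, averaged over all libraries, was a branching enzyme, and it rose in both regions. Gcnt3 (chr9:70031496-70038088), the mucin-type transferase that makes core 2 and core 4 branches, had 639, 594 and 535 CPM in inhibited corpus lines 8025, 8026 and 8028, against 205, 202 and 265 CPM in vehicle lines. In antrum the values were 645, 593 and 633 CPM in inhibited and 249, 244 and 200.3 CPM in vehicle lines. Inhibited and vehicle libraries lay far apart in each region, and the rise was 2.63-fold in corpus (log2 change 1.39 ± 0.12 SE, adjusted p = 1.12e-05) and 2.7-fold in antrum (log2 change 1.43 ± 0.12 SE, adjusted p = 8.13e-06). Gcnt1, the leukocyte-type core 2 enzyme, had 91.8, 87.9 and 58.5 CPM in inhibited and 49.8, 51.2 and 51.5 CPM in vehicle corpus lines, a rise of 1.56-fold (adjusted p = 0.0259). That call was lost on leaving out any single corpus library other than inhibited line 8028 (adjusted p = 0.055 to 0.0832). In antrum Gcnt1 averaged 65.4 ± 7.09 CPM in inhibited and 50.4 ± 12.9 CPM in vehicle organoids (adjusted p = 0.163). Gcnt2, which makes the branches of the I antigen, was slightly lower, at 32 ± 0.586 CPM in inhibited against 38.3 ± 2.71 CPM in vehicle corpus organoids and 32.9 ± 2.15 CPM in inhibited against 39.6 ± 1.62 CPM in vehicle antral organoids (adjusted p = 0.0176 and 0.0164). The Gcnt2 call did not survive leaving out either line 8025 or 8026 from either corpus group (0.0537 to 0.108), inhibited antral line 8026 (0.0726) or vehicle antral line 8025 (0.0746). Gcnt4 averaged 12.4 ± 1.68 and 11.9 ± 1.97 CPM in inhibited and vehicle corpus organoids and was not called in either region. Per length, Gcnt3 made up 86.8% ± 0.657 of the Gcnt sum in inhibited and 75.6% ± 2.56 in vehicle corpus organoids, and 88.2% ± 0.504 in inhibited against 75.3% ± 4.23 in vehicle antral organoids.

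**Figure D3:**
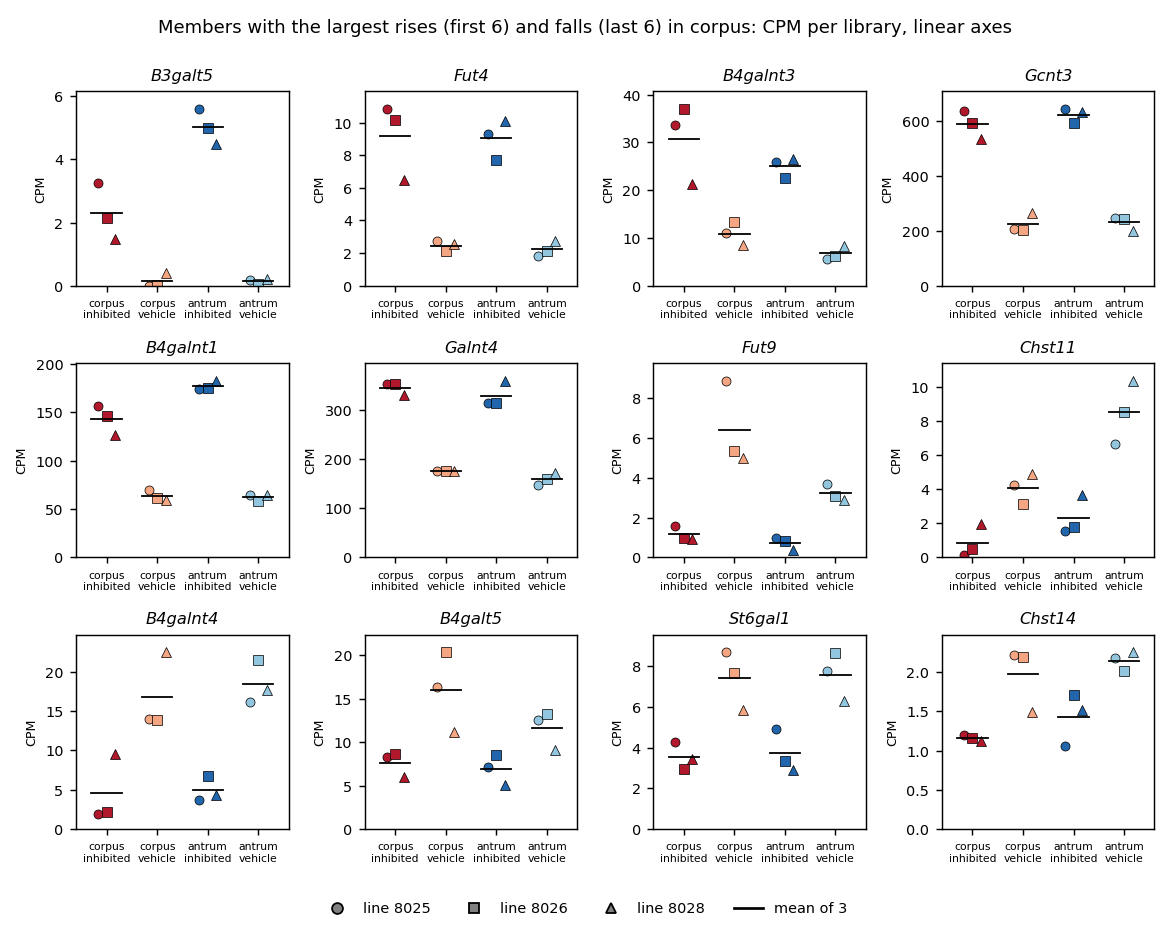
CPM in each library (linear axis from 0) for the 6 largest called rises and 6 largest called falls in corpus. Only members averaging at least 1 CPM are ranked. The groups inhibited and vehicle stand side by side for corpus and antrum. Circles, squares and triangles are lines 8025, 8026 and 8028, and the bar is the mean of 3. Gcnt3 runs from 535 to 645 CPM in inhibited libraries and from 200 to 265 CPM in vehicle ones, and the triangle of inhibited corpus line 8028 lies nearest the vehicle points for many members.

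Next in level per length came a chain-extending enzyme. B3gnt3 (chr8:71690756-71701789), which extends core 1, had 368, 349 and 299 CPM in inhibited and 217, 207 and 196 CPM in vehicle corpus lines. In antrum it had 348, 337 and 317 CPM in inhibited and 217, 203 and 210.4 CPM in vehicle lines. It rose 1.64-fold in corpus (adjusted p = 5.97e-05) and 1.59-fold in antrum (adjusted p = 8.35e-05), without overlap, and it took up 52.3% ± 2.31 of the extension sum per kb in inhibited against 42.2% ± 0.553 in vehicle corpus organoids. The largest relative rise of the set was that of B3galt5 (chr16:96235801-96319859), which adds the galactose of type 1 chains and whose promoter is printed above. It had 3.26, 2.14 and 1.47 CPM in inhibited corpus lines, against 0, 0.0319 and 0.399 CPM in vehicle lines, from 168 and 13 counts. In antrum it had 5.6, 5.0 and 4.5 CPM in inhibited and 0.177, 0.0659 and 0.209 CPM in vehicle lines, from 408 and 10 counts. Even after the rise it stayed a rare transcript, with a log2 change of 4.00 ± 0.70 SE in corpus (adjusted p = 0.00134) and 5.10 ± 0.72 SE in antrum (adjusted p = 0.000331). B3galt1, another type 1 chain enzyme, also rose at low level, to 1.37 ± 1.03 CPM in inhibited against 0.206 ± 0.0993 CPM in vehicle corpus organoids and to 1.42 ± 0.467 CPM in inhibited against 0.092 ± 0.0513 CPM in vehicle antral organoids (adjusted p = 0.0094 and 0.00287). Its corpus call was lost without both corpus libraries of line 8026 (0.106).

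Of 17 extension genes tested, 5 were called higher and 1 lower in corpus, beside 15.5% and 15.4% of all genes. In antrum 5 were higher and 2 lower, beside 16.3% and 13.4% of all genes. The others that rose in both regions were B3galt4, a ganglioside galactosyltransferase (8.63 ± 2.03 CPM in inhibited against 5.58 ± 0.749 CPM in vehicle corpus organoids, adjusted p = 0.0236, and 8.24 ± 0.852 CPM in inhibited against 4.38 ± 0.723 CPM in vehicle antral organoids, adjusted p = 0.00362), and B4galt3, which makes N-acetyllactosamine. The corpus call of B3galt4 was lost without inhibited line 8025 (adjusted p = 0.0975), vehicle line 8025 (0.0765) or vehicle line 8028 (0.06), and with total-count scaling (0.0635). The B4galt3 rise was 1.18-fold in corpus and 1.21-fold in antrum (adjusted p = 0.0324 and 0.0204), and its corpus groups overlapped. B4galt3 shares 14.5% of its exon bases with Ppox on the opposite strand. With total-count scaling its log2 change was 0.08 in corpus (adjusted p = 0.525), against 0.24 with TMM, and the antral call was lost too (0.142). It was lost as well without 4 of the 6 corpus libraries (inhibited lines 8025 and 8026, vehicle lines 8026 and 8028, adjusted p = 0.0726 to 0.112) and 3 antral ones (inhibited lines 8026 and 8028, vehicle line 8028, 0.0501 to 0.0692). B4galt5 (chr2:167298444-167349183), a lactosylceramide synthase, fell to 8.28, 8.65 and 5.94 CPM in inhibited corpus lines, against 16.3, 20.3 and 11.2 CPM in vehicle lines (log2 change −1.07 ± 0.25 SE, adjusted p = 0.00802). Its antral values were 7.11, 8.51 and 5.12 CPM in inhibited and 12.6, 13.2 and 9.06 CPM in vehicle lines (adjusted p = 0.0463). The antral call was lost without inhibited line 8025 (0.105) or 8028 (0.153), or vehicle line 8025 (0.127) or 8026 (0.161). The corpus call was lost without both corpus libraries of line 8026 (0.0604). B3gnt5, which starts lacto-series glycolipids, was the other antral fall, at 0.136 ± 0.0774 CPM in inhibited against 0.722 ± 0.338 CPM in vehicle organoids (adjusted p = 0.00873). That call was lost without both antral libraries of line 8025 (0.0994). In corpus B3gnt5 averaged 0.132 ± 0.0923 CPM in inhibited and 0.324 ± 0.0797 CPM in vehicle organoids (adjusted p = 0.143). B4galt6, the other lactosylceramide synthase, averaged 168 ± 31.8 CPM in inhibited and 169.6 ± 10.3 CPM in vehicle corpus organoids and was not called. B4galt1, the main N-acetyllactosamine galactosyltransferase, averaged 155 ± 26.2 CPM in inhibited against 132 ± 17.9 CPM in vehicle corpus organoids and 123 ± 6.64 CPM in inhibited against 100.4 ± 14.8 CPM in vehicle antral organoids. It was not called (adjusted p = 0.24 and 0.141), but the fit with each line as a block put it past the threshold as higher in both regions (0.0239 and 0.00668).

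GalNAc-capping enzymes moved in both directions, each strongly. B4galnt3 (chr6:120203073-120294559) and B4galnt4 (chr7:141061104-141072400) both make LacdiNAc, a GalNAc-terminated arm found on gastric mucins, yet only the first of them rose. B4galnt3 had 33.6, 37 and 21.3 CPM in inhibited and 10.9, 13.4 and 8.46 CPM in vehicle corpus lines. In antrum it had 25.9, 22.5 and 26.5 CPM in inhibited and 5.66, 6.26 and 8.31 CPM in vehicle lines. The rise was 2.8-fold in corpus (log2 change 1.49 ± 0.22 SE, adjusted p = 0.000473) and 3.69-fold in antrum (log2 change 1.88 ± 0.23 SE, adjusted p = 0.000127), with inhibited corpus line 8028 the lowest of the inhibited libraries. Of its exon bases, 4.47% overlap D330020A13Rik on the opposite strand.

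B4galnt4 ran the other way, with 1.98, 2.23 and 9.52 CPM in inhibited and 14, 13.9 and 22.5 CPM in vehicle corpus lines. Antral lines gave 3.73, 6.75 and 4.3 CPM in inhibited against 16.2, 21.5 and 17.7 CPM in vehicle antral lines. Line 8028 was the highest in both corpus groups, and the groups still did not overlap. The fall was 3.63-fold in corpus (adjusted p = 0.0147) and 3.75-fold in antrum (adjusted p = 0.0135). It was lost without inhibited corpus line 8026 (adjusted p = 0.0558), vehicle corpus line 8028 (0.0551), or inhibited antral line 8025 (0.0594) or 8028 (0.0515). B4galnt1 (chr10:127165225-127172330), which makes the gangliosides GM2 and GD2, had 157, 146 and 127 CPM in inhibited and 69.3, 61.3 and 59.1 CPM in vehicle corpus lines. In antral lines it had 174, 175 and 183 CPM in inhibited against 64.2, 58.2 and 64.1 CPM in vehicle antral lines. It rose 2.27-fold (adjusted p = 4.27e-06) and 2.85-fold (adjusted p = 1.04e-06), and it shares 20.7% of its exon bases with Slc26a10 on the opposite strand. B4galnt2, the Sda antigen enzyme, had 66 counts in all, too few to pass the filter on low counts, with 6 in inhibited and 22 in vehicle corpus libraries.

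Among the 7 fucosyltransferases, calls were 2 upward and 2 downward in corpus, where 15.5% of all genes were higher and 15.4% lower. In antrum 3 were upward and 3 downward, where 16.3% of all genes were higher and 13.4% lower. Fut2 (chr7:45648591-45666394), the secretor-type enzyme that makes the H antigen on mucins, had 209.9, 208 and 164 CPM in inhibited and 126, 138 and 107 CPM in vehicle corpus lines. In antrum it had 198, 194 and 217 CPM in inhibited and 108, 94.5 and 107 CPM in vehicle lines. It rose 1.56-fold in corpus (adjusted p = 0.00121) and 1.97-fold in antrum (adjusted p = 7.7e-05). It made up 61.1% ± 1.24 of the fucosyltransferase sum per kb in inhibited against 52.8% ± 3.99 in vehicle corpus organoids, and 61.2% ± 0.204 in inhibited against 50.3% ± 1.84 in vehicle antral organoids. Fut1, the other H-antigen enzyme, was lower in antrum, at 4.18 ± 0.931 CPM in inhibited against 7.43 ± 0.719 CPM in vehicle organoids (adjusted p = 0.0167). That call was lost without inhibited antral line 8025 (0.0732) or 8026 (0.0567) or vehicle antral line 8026 (0.0597). In corpus Fut1 averaged 6.14 ± 1.29 CPM in inhibited and 8.26 ± 1.97 CPM in vehicle organoids (adjusted p = 0.168).

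Fut4 (chr9:14748320-14752393) and Fut9 (chr4:25609332-25800244) both make Lewis x structures and moved in opposite directions. Fut4, whose promoter window is printed above, had 10.8, 10.2 and 6.51 CPM in inhibited and 2.73, 2.14 and 2.53 CPM in vehicle corpus lines. Its antral values were 9.29, 7.72 and 10.1 CPM in inhibited against 1.83, 2.14 and 2.71 CPM in vehicle antral lines. It rose 3.71-fold in corpus (log2 change 1.89 ± 0.22 SE, adjusted p = 7.95e-05) and 4.02-fold in antrum (log2 change 2.01 ± 0.22 SE, adjusted p = 5.71e-05). Fut9 had 1.57, 0.985 and 0.903 CPM in inhibited and 8.86, 5.33 and 4.96 CPM in vehicle corpus lines. Antral lines gave 0.951, 0.821 and 0.352 CPM in inhibited against 3.66, 3.1 and 2.88 CPM in vehicle antral lines. It fell 5.54-fold in corpus (log2 change −2.47 ± 0.34 SE, adjusted p = 0.00026) and 4.47-fold in antrum (log2 change −2.16 ± 0.36 SE, adjusted p = 0.000937), and the call held in each alternative run in both regions, as did those of Fut4 and Fut2. Per kb of exon, Fut4 stood at 2.25 ± 0.573 CPM in inhibited and 0.605 ± 0.0737 CPM in vehicle corpus organoids, and the much longer Fut9 at 0.0833 ± 0.0262 CPM in inhibited and 0.462 ± 0.156 CPM in vehicle corpus organoids. Fut8, which fucosylates the core of N-glycans rather than mucin chains, averaged 118 ± 8.76 CPM in inhibited against 105 ± 4.39 CPM in vehicle corpus organoids and was not called there. Its antral means were 133 ± 8.26 CPM in inhibited against 95.5 ± 10.4 CPM in vehicle antral organoids, called higher (adjusted p = 0.00144). Fut10 was lower in both regions below 1 CPM (adjusted p = 0.0289 and 0.0191). The call was lost without inhibited line 8025 or 8026 or vehicle line 8028 of either region, vehicle corpus line 8025 or vehicle antral line 8026 (0.0517 to 0.0949).

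Sialyltransferases gave 3 rises and 2 falls among 12 tested in each region, where 15.5% of all genes were higher and 15.4% lower in corpus, and 16.3% higher and 13.4% lower in antrum. St8sia6, which adds a second sialic acid to O-glycans, had 174, 184 and 133 CPM in inhibited and 103, 104 and 90.9 CPM in vehicle corpus lines (adjusted p = 0.0184), and 160.4, 110.1 and 106 CPM in inhibited against 110.0, 81.1 and 66.3 CPM in vehicle antral lines (adjusted p = 0.0609). Line 8025 was the highest in both antral groups. With each line as a block the antral rise was called (adjusted p = 0.000153), while the corpus call was lost without inhibited line 8026 (0.0664) or vehicle line 8028 (0.0562). St3gal6, which sialylates N-acetyllactosamine, rose to 119 ± 7.38 CPM in inhibited against 90.7 ± 1.86 CPM in vehicle corpus organoids and to 112 ± 10.7 CPM in inhibited against 83.5 ± 11.5 CPM in vehicle antral organoids (adjusted p = 0.0104 and 0.00746). The corpus call of St3gal6 was lost with total-count scaling (0.0666), without both corpus libraries of line 8025 (0.0807) and without both of line 8026 (0.084), and the antral call without both antral libraries of line 8026 (0.0926). Of its exon bases, 26% overlap Dcbld2 on the opposite strand. St3gal5, the GM3 synthase, rose 1.68-fold and 1.71-fold (adjusted p = 0.00369 and 0.00364). Its corpus call was lost without both corpus libraries of line 8026 (0.0507).

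St6gal1 (chr16:23224740-23360350), which sialylates N-glycan antennae, fell. It had 4.29, 2.95 and 3.42 CPM in inhibited and 8.68, 7.65 and 5.86 CPM in vehicle corpus lines. In antral lines it had 4.89, 3.36 and 2.89 CPM in inhibited against 7.79, 8.63 and 6.3 CPM in vehicle antral lines. The groups did not overlap, and the fall was 2.08-fold in corpus (adjusted p = 0.0048) and 2.04-fold in antrum (adjusted p = 0.00596). St8sia4, a polysialyltransferase, fell at low level, to 0.303 ± 0.163 CPM in inhibited against 1.24 ± 0.37 CPM in vehicle corpus organoids and 0.151 ± 0.107 CPM in inhibited against 0.999 ± 0.249 CPM in vehicle antral organoids (adjusted p = 0.00613 and 0.00224). St3gal1, which sialylates the galactose of core 1, averaged 3.8 ± 0.996 CPM in inhibited against 4.28 ± 0.247 CPM in vehicle corpus organoids and 3.82 ± 0.202 CPM in inhibited against 3.83 ± 0.514 CPM in vehicle antral organoids, not called in either. St6galnac1, which makes sialyl-Tn, had 0 counts in all 12 libraries, which allows at most 0.0889 to 0.177 CPM per library (3 counts, counting error only). St6galnac2 adds sialic acid to the GalNAc of core 1, and its main identifier (ENSMUSG00000057286) averaged 40.4 ± 2.47 CPM in inhibited against 37.8 ± 4.71 CPM in vehicle corpus organoids and was not called there. Its antral means were 41.5 ± 2.6 CPM in inhibited against 33.1 ± 0.545 CPM in vehicle antral organoids, called higher (adjusted p = 0.0182), but not without inhibited antral line 8028 (0.0716) or with total-count scaling (0.108). A second identifier of the same symbol (ENSMUSG00000110170) shares 22.8% of its exon bases with the first, so the split of reads between them is uncertain.

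Of 7 sulfotransferases tested, 4 were lower and none higher in corpus, and 3 were lower and 1 higher in antrum, beside 15.4% of all genes lower in corpus and 13.4% in antrum. Those that fell are best known for sulfating chondroitin and dermatan sulfate chains. Chst11 (chr10:82985498-83195900) had 0.124, 0.514 and 1.96 CPM in inhibited and 4.24, 3.13 and 4.86 CPM in vehicle corpus lines. Its antral values were 1.55, 1.75 and 3.68 CPM in inhibited against 6.66, 8.53 and 10.4 CPM in vehicle antral lines. It fell 4.6-fold (log2 change −2.20 ± 0.61 SE, adjusted p = 0.0183) and 3.68-fold (log2 change −1.88 ± 0.56 SE, adjusted p = 0.026), with line 8028 the highest of each group. The corpus call was lost without inhibited line 8026 (0.0721) or vehicle line 8028 (0.0523), and the antral one without inhibited line 8025 (0.101) or 8026 (0.09), or vehicle line 8026 (0.0606) or 8028 (0.0741).

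Chst12 was lower at 0.514 ± 0.0761 CPM in inhibited against 1.48 ± 0.481 CPM in vehicle corpus organoids and 1.13 ± 0.321 CPM in inhibited against 2.28 ± 0.634 CPM in vehicle antral organoids (adjusted p = 0.00485 and 0.0242). The antral call was lost without inhibited line 8025 (0.0984) or 8028 (0.0769) or vehicle line 8026 (0.054) or 8028 (0.096). Chst7 was lower at 1.88 ± 0.559 CPM in inhibited against 3.15 ± 0.568 CPM in vehicle corpus organoids and 1.53 ± 0.269 CPM in inhibited against 2.91 ± 0.322 CPM in vehicle antral organoids (adjusted p = 0.0312 and 0.0123). That call was lost without inhibited line 8025 or 8026 of either region or vehicle corpus line 8026 or 8028 (0.0507 to 0.13). Chst14, the dermatan sulfate enzyme, was called lower in corpus (1.16 ± 0.0334 CPM in inhibited and 1.97 ± 0.412 CPM in vehicle organoids, adjusted p = 0.0236). It was lost without line 8025 or 8026 of either corpus group (0.0581 to 0.0897). Chst4, which sulfates GlcNAc on mucin chains, averaged 0.726 ± 0.349 CPM in inhibited against 0.374 ± 0.276 CPM in vehicle corpus organoids and 1.59 ± 0.88 CPM in inhibited against 0.682 ± 0.272 CPM in vehicle antral organoids and was not called (adjusted p = 0.315 and 0.175). Chst8, a GalNAc sulfotransferase, was called higher in antrum, at 0.585 ± 0.108 CPM in inhibited against 0.22 ± 0.0668 CPM in vehicle organoids (adjusted p = 0.0106). It had 14, 15 and 18 counts in inhibited against 5, 6 and 4 in vehicle antral lines. The call was lost in 3 of 17 alternatives.

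The size of the change differed between corpus lines, given here as a description, since the members were called on these same lines. Line 8028 had the smallest change for 24 of the 32 called members, with a median log2 change in the called direction of 0.61, against 0.94 in line 8025 and 0.94 in line 8026. The same count was not made over all called genes, so the smaller change is not shown to be particular to the members. Line 8028 is the corpus line that kept the most Axin2. In antrum the medians of lines 8025, 8026 and 8028 were 0.86, 1.01 and 1.02. Calls that held in each alternative numbered 13 of 32 in corpus and 15 of 34 in antrum. Gcnt3, Galnt4, Galnt7, Galnt10, B3gnt3, B3galt5, B4galnt1, B4galnt3, Fut2, Fut4 and Fut9 were among them in both.

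No member was found to respond differently in antrum and corpus. The test of the difference between the 2 responses called 0 of 63 members, beside 0.00619% of all genes, with 2 members at an unadjusted p below 0.05 and 0 called by DESeq2. Those 2 were B4galnt1, whose antral log2 change was larger by 0.33, and Fut8, larger by 0.31, and edgeR's adjusted p was 1 for both. Calls in one region alone, such as those of Gcnt1 and Fut1, are thus not shown to differ between regions.

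With all libraries used, no member passed the test between antral and corpus organoids of the same treatment. Of the 63 members, 0 were called between inhibited antral and inhibited corpus organoids (background 0.0619%; 14 at an unadjusted p below 0.05; DESeq2 called 1, St6gal2), and 0 between vehicle antral and vehicle corpus organoids (background 0.198%; 11 at an unadjusted p below 0.05; DESeq2 called 1, St6gal2). St6gal2, a sialyltransferase related to St6gal1, came closest. It had 0.141, 0.0746 and 0 CPM in inhibited antral lines against 1.2, 0.599 and 0.564 CPM in inhibited corpus lines, and 0.118, 0.165 and 0.0417 CPM in vehicle antral lines against 1.75, 0.574 and 0.899 CPM in vehicle corpus lines. The regions did not overlap under either treatment, with a log2 difference (antrum over corpus) of −3.33 ± 0.73 SE in inhibited organoids (adjusted p = 0.201) and −3.22 ± 0.68 SE in vehicle organoids (adjusted p = 0.0826).

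Corpus line 8028 bore on this result. Without its 2 libraries, 13 members (20.6%) were called between the inhibited groups, beside 14.6% of all genes, and 9 (14.3%) between the vehicle groups, beside 6.6% of all genes. In the inhibited groups 8 were higher and 5 lower in antrum, beside 9.13% and 5.46% of all genes. In the vehicle groups 4 were higher and 5 lower, beside 2.27% and 4.33% of all genes. The 8 members called under both treatments, in the same direction each time, were Galnt10, Galnt5, B4galt4 and Gcnt4, higher in antrum, and St6gal2, B4galt1, St3gal4 and B4galnt3, lower in antrum. Leaving out any other line gave no call, so these calls and their adjusted p-values depend on the choice of line 8028. Both treatments used the same lines, so a call under both is not a second test. Galnt5 had 2.43, 2.8 and 1.88 CPM in inhibited antral lines against 0.453, 0.514 and 1.88 CPM in inhibited corpus lines. Vehicle values were 1.24, 1.29 and 1.13 CPM in vehicle antral lines against 0.415, 0.351 and 0.599 CPM in vehicle corpus lines, where the third corpus value is that of line 8028. Its log2 difference without that line was 2.28 in inhibited organoids (adjusted p = 0.0024) and 1.66 in vehicle organoids (adjusted p = 0.0128). B4galt4, a galactosyltransferase, had 3.66, 4.55 and 5.98 CPM in inhibited antral against 1.77, 2.01 and 6.73 CPM in inhibited corpus lines and 3.18, 4.12 and 4.84 CPM in vehicle antral against 0.889, 1.69 and 5.03 CPM in vehicle corpus lines. Its levels in corpus lines 8025 and 8026 lay below those of every antral library of the same treatment, and that of line 8028 lay above them. Among the 3 corpus lines, 8028 lay nearest the antral mean for 13 of the 13 members called between inhibited groups and for 8 of the 9 called between vehicle groups. Since those members were called without it, this is a description. Line 8028 also had the highest corpus levels of 2 genes typical of distal stomach and intestine. Pdx1 had 41.9 CPM there, against 28.4 and 31.3 CPM in the other inhibited corpus lines, and 27.2 CPM, against 20.7 and 19.8 CPM in the other vehicle corpus lines. Cdx2 had 44.9 CPM, against 17.6 and 19.7 CPM, among inhibited lines and 23.8 CPM, against 10.9 and 8.80 CPM, among vehicle lines. Other antral and goblet markers were mixed. Clca1 was highest in line 8028 under both treatments (50.8 against 20.1 and 16.4 CPM inhibited, 2.63 against 1.13 and 1.69 CPM vehicle). Tff3 had 4.1 against 1.73 and 1.71 CPM inhibited, but 0.133 against 0.237 and 0.128 CPM vehicle. Muc2 had 1.54 against 1.85 and 2.87 CPM inhibited, and 2.36 against 1.72 and 2.52 CPM vehicle. Gast and Cdx1 were at most 0.188 CPM in corpus. The part of these genes in the result was not tested.

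**Figure D4:**
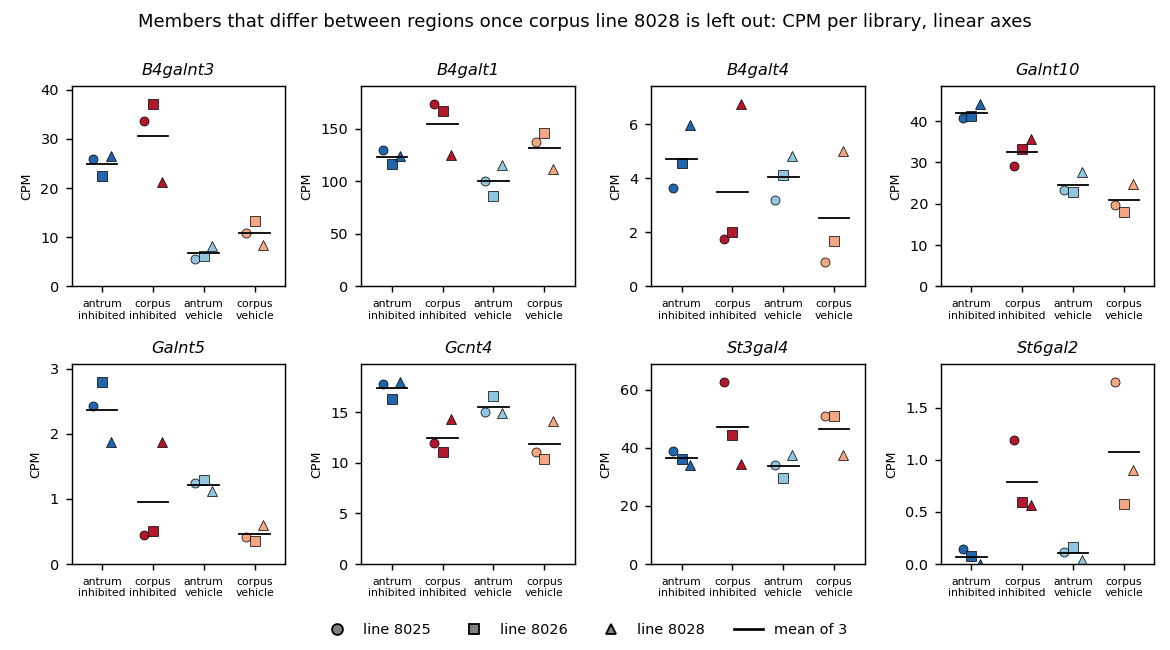
CPM in each library for 8 members, with antral beside corpus organoids, first for the inhibited and then for the vehicle groups; circles, squares and triangles are lines 8025, 8026 and 8028, and bars are means of 3. St6gal2 stays below 0.2 CPM in every antral library and above 0.5 CPM in every corpus library, and for Galnt5 and B4galt4 the triangle of corpus line 8028 lies apart from the other corpus lines towards the antral points.

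Other genes of the pathway are given by lists chosen with earlier results of these data known. Of 13 mucin protein genes, 9 were tested, and in both regions 4 rose (Muc1, Muc5ac, Muc5b, Mucl3) and 1 fell (Muc6), beside 15.5% of all genes higher and 15.4% lower in corpus and 16.3% and 13.4% in antrum. The antral call of Muc5b was lost in 3 of 17 alternatives, and the corpus call of Muc1 in 1 of 16. The median log2 change of the list was −0.06 in corpus and 0.34 in antrum. Muc5ac, the surface pit mucin, had 72.6, 26.2 and 28.5 CPM in inhibited and 1.63, 0.446 and 0.366 CPM in vehicle corpus lines. Antral lines gave 60.8, 103 and 32.6 CPM in inhibited against 0.826, 0.494 and 0.668 CPM in vehicle antral lines (adjusted p = 8.84e-05 in corpus and 4.54e-05 in antrum). Muc6, the gland mucin, had 7.83, 15.2 and 14 CPM in inhibited and 238, 233 and 138 CPM in vehicle corpus lines. In antral lines it had 42, 19.1 and 36.6 CPM in inhibited against 354, 238 and 423 CPM in vehicle antral lines (adjusted p = 2.14e-05 in corpus and 4.51e-05 in antrum). Each inhibited library was thus high in Muc5ac and low in Muc6 relative to every vehicle library, while Tff2, the other gland marker, was high in inhibited libraries. Muc1, a membrane mucin, averaged 731 ± 132 CPM in inhibited against 496 ± 38.1 CPM in vehicle corpus organoids and 733 ± 30.5 CPM in inhibited against 461 ± 22.2 CPM in vehicle antral organoids (adjusted p = 0.00322 and 0.00111).

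Of 11 other end-capping enzymes, 6 were tested, and 2 rose and 3 fell in both regions (median log2 change −0.30 and −0.32), against the same shares of all genes. A4gnt, which adds the alpha-linked GlcNAc typical of Muc6, fell with it: it had 0.495, 2.1 and 2.48 CPM in inhibited and 33.8, 34.4 and 28.7 CPM in vehicle corpus lines. Its antral values were 2.11, 2.13 and 2.15 CPM in inhibited against 30.3, 19.4 and 23.3 CPM in vehicle antral lines. Its log2 change was −4.24 ± 0.36 SE in corpus (adjusted p = 1.26e-05) and −3.51 ± 0.35 SE in antrum (adjusted p = 3.07e-05), larger in size than that of any member that fell. Abo, the blood group A and B transferase, rose 2.26-fold and 2.91-fold (adjusted p = 0.00177 and 0.000347). Gal3st1, the sulfatide sulfotransferase, rose 2.2-fold and 2.49-fold (adjusted p = 0.000169 and 6.67e-05). The other falls were those of B3galnt2, which acts on dystroglycan (1.65-fold and 1.49-fold, adjusted p = 5.06e-05 and 0.000233), and Casd1, the sialic acid O-acetyltransferase. The Casd1 call was lost without 1 corpus library (vehicle line 8025, 0.0564) or any of 3 antral ones (inhibited lines 8025 and 8026, vehicle line 8026, 0.0603 to 0.0784).

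Genes for sugar donor synthesis were called higher more often than lower. Of 22 tested genes for donor synthesis, 10 were higher and 2 lower in corpus and 13 higher and 2 lower in antrum (median log2 change 0.27 and 0.23), beside 15.5% and 15.4% of all genes in corpus and 16.3% and 13.4% in antrum. Of the 13 antral rises 4 were fragile: those of Tsta3, Fcsk, Fpgt and Papss1 were lost in 13, 11, 10 and 11 of 17 alternatives, total-count scaling among them. Ugdh, which makes UDP-glucuronic acid for proteoglycan chains and glucuronides, rose 2.28-fold and 2.61-fold (adjusted p = 0.000342 and 0.000125). Papss2, which makes the sulfate donor PAPS, rose 1.77-fold and 2.05-fold (adjusted p = 6.77e-05 and 1.47e-05). The lower ones were Galk1, galactokinase, and Gne, which starts sialic acid synthesis. Gne averaged 43.7 ± 6.0 CPM in inhibited against 53.8 ± 3.22 CPM in vehicle corpus organoids (adjusted p = 0.0422), a call lost without any single corpus library but inhibited line 8028 (0.067 to 0.181). In antrum it averaged 51.7 ± 4.94 CPM in inhibited against 73.5 ± 2.89 CPM in vehicle organoids (adjusted p = 0.00272). Of 14 transporter genes 8 rose and none fell in either region (median log2 change 0.34 and 0.31), against the same shares of all genes. Of these calls, Slc35b3 was lost in 2 of 16 corpus and 5 of 17 antral alternatives, and Slc35d2 in 5 of 16 and 5 of 17. The corpus call of Slc35a1 was lost with total-count scaling (adjusted p = 0.185). That of Slc35a2 was lost without both corpus libraries of line 8026 (0.0553). Among the 8 rises were the carriers of UDP-glucuronic acid and UDP-GalNAc (Slc35d1, 2.5-fold and 2.53-fold), GDP-fucose (Slc35c1, 1.35-fold and 1.31-fold) and UDP-galactose (Slc35a2, 1.33-fold and 1.33-fold). The largest rise in that list was that of Slc26a2, a sulfate transporter of the plasma membrane, at 3.86-fold and 3.83-fold (adjusted p = 9.32e-06 and 8.42e-06).

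**Figure D5:**
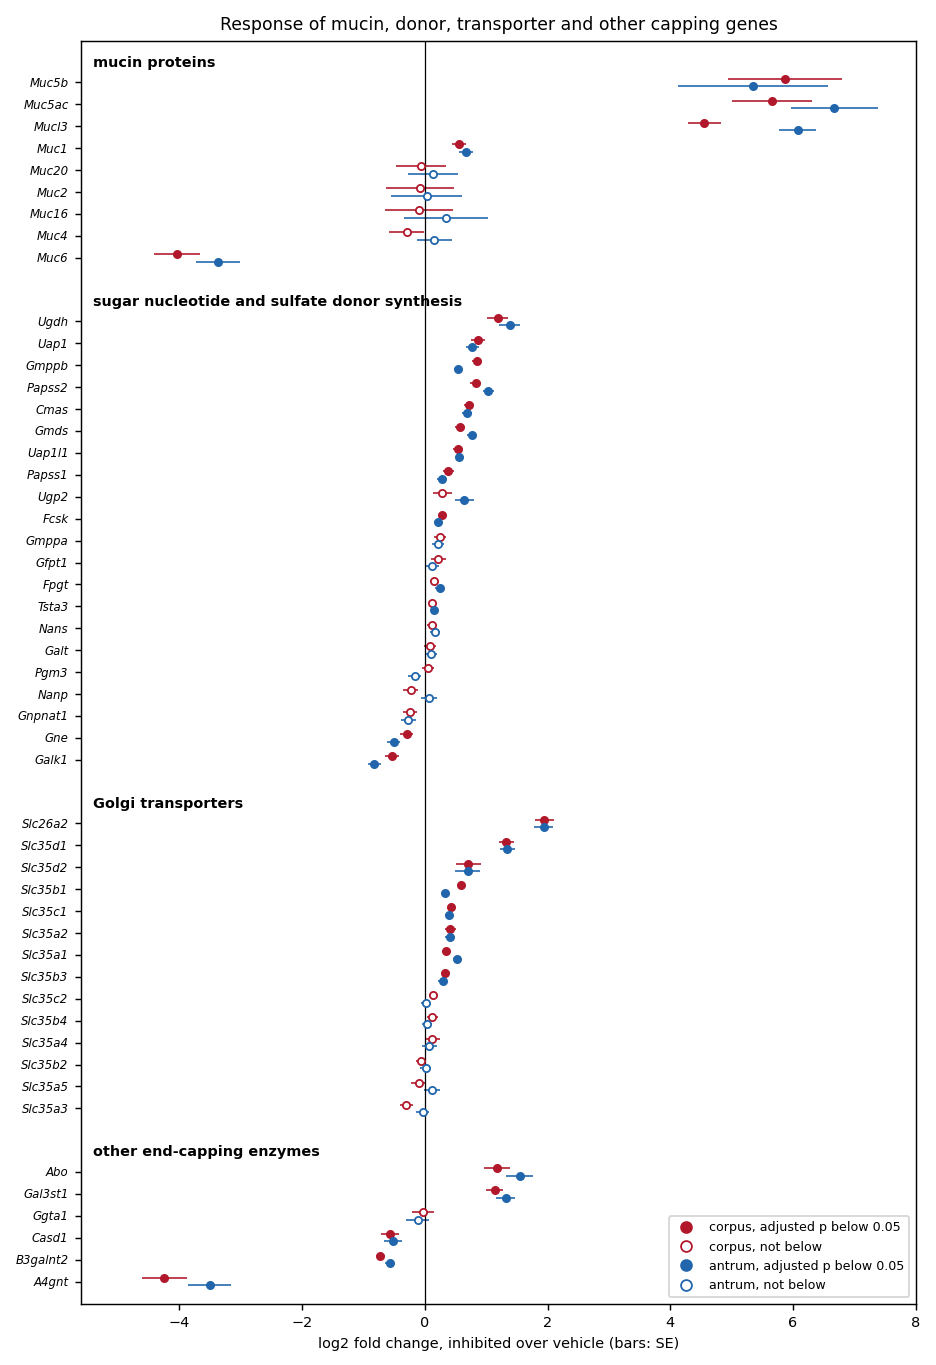
Log2 change (inhibited over vehicle) with its standard error for the tested genes of the 4 lists outside the enzyme families, except 1 donor synthesis gene not shown, in corpus (red) and antrum (blue), with filled points for an adjusted p below 0.05. Muc6 and A4gnt lie farthest to the left, Muc5ac, Mucl3 and Muc5b farthest to the right, and most transporter and donor genes called lie to the right of 0.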

How the data were processed

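PolyA-selected RNA of the 12 organoid libraries was sequenced, per the labels' protocols. The authors deposited expected counts per gene for all libraries in one table; the build GRCm38 and the tools RSEM 1.3.3, STAR 2.7.8a, FastQC 0.11.8 and cutadapt 2.3 are listed per the submitters' processing notes. Whether counting used strand, and which annotation release, is not given in the sources used here. Reads of overlapping genes may thus be shared. All values were whole; 5 rows that name no mouse gene held 2 counts and were left out. Gene positions and exon lengths are from GENCODE release M21 on GRCm38, which held 55154 of 55421 identifiers.

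Groups follow the labels. All 12 libraries were fitted with edgeR 4.0.16 in R 4.3.3 (TMM scaling, filterByExpr by group, robust quasi-likelihood, 4 group means, 8 residual degrees of freedom), and p-values were adjusted over 16152 genes by the Benjamini-Hochberg method, with calls at 0.05; the script was tested on simulated counts. Standard errors are the log2 change over the root of F. CPM use TMM-scaled totals, and CPM per kb divide by merged exon length. Total counts of 18858022 to 31656696 limit precision to about 0.0889 to 0.177 CPM for 3 counts.

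The members, roles and lists were chosen with earlier results of these data known. Named outside the leading roles were the 6 largest called rises and falls averaging at least 1 CPM, a fixed set of O-glycan genes, and up to 3 genes per outside list by size of change, with Muc1, Muc5ac, Muc6 and A4gnt; other genes were named after their values were seen. The values of 1 gene of the donor synthesis list are not reported here. Replicates differed beyond counting noise in every group (chi-square per degree of freedom 10.8 to 306). The same lines received both treatments per the labels' protocols, and within a region libraries of the same line deviated together (r = 0.157 to 0.544, each over 0.1), so line pairs inhibited and vehicle libraries; across regions the numbers did not (r = −0.104 to 0.277). Alternatives were other scalings, no filter, DESeq2 1.42.0, a replicate block by line, fits holding one comparison's libraries alone, and fits that left out a library or a line in turn. Figures were drawn with matplotlib 3.10.9 in Python 3.11.15.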

Additional observations from a re-analysis of the deposited data

How the results depend on the processing

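Across 32 named members, 1056 alternative values were computed in the 2 treatment comparisons: 938 kept their side of the threshold, 111 lost the call, 7 gained one and 0 reversed a call. In corpus, 20 members were higher (11 to 23 on leaving out a library or line, with 11 without line 8026) and 12 lower (4 to 13 on leaving out a library or line, and 5 with the fit holding the corpus libraries alone). In antrum, 21 were higher (16 to 22) and 13 lower (3 to 11, and 3 without the vehicle libraries of lines 8025 and 8028, which are rich in ribosomal-type transcripts). Among named members, testing without the filter on low counts ended the corpus calls of B4galnt4, B4galt3, Chst11, Chst14, Chst7, Galnt6, Gcnt1 and St8sia6 and the antral calls of B4galnt4, B4galt5 and Chst11. With the replicate block by line, which pairs inhibited and vehicle libraries, corpus gave 24 higher and 14 lower and antrum 26 higher and 14 lower; no call was lost, and the members it added in corpus were B4galt1, B4galt4, Galnt2, Galnt5, St3gal3 and Chst15, and in antrum B4galt1, B4galt2, Galnt2, Galnt3, Galnt5 and St8sia6.

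Between regions, vehicle organoids had 0 members higher in antrum (0 to 4 on leaving out a library or line) and 0 lower (0 to 5 on leaving out a library or line, 1 with no filter, 1 with DESeq2 and 1 with the replicate block by line number, each time St6gal2). Inhibited organoids had 0 higher (0 to 8, with 6 without the inhibited corpus library of line 8028 and 8 when its vehicle library was dropped too) and 0 lower (0 to 5, with 2 and 5 in the same settings, and 1 with DESeq2). The test of a different response in antrum gave 0 under each alternative. DESeq2 called 33 members in corpus and 36 in antrum, against 32 and 34 with edgeR. Upper quartile scaling gave 20 higher and 12 lower in corpus and 20 and 14 in antrum, and total counts 14 and 13 in corpus and 17 and 13 in antrum, where the median of all genes was −0.12 and of the members 0.08. The cause of these differences was not tested. Of 13 members kept but left untested, B3gnt6, B4galnt2 and Galnt18 had 78, 66 and 61 counts in all; the filter on low counts kept them out of the test.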
